A study of Saccharomyces cerevisiae with 8 samples.

Results

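The genes described here encode the starting and end points of general amino acid control in budding yeast (Saccharomyces cerevisiae). They are the transcription factor gene GCN4, the kinase gene GCN2, the 3 genes of initiation factor eIF2 (SUI2, SUI3 and GCD11) and the 5 genes of its exchange factor eIF2B (GCN3, GCD7, GCD2, GCD1 and GCD6). They were taken by systematic gene identifier for their place in the pathway and are 10 of the 6692 identifiers in the deposited count table. Cells came from YEPD, a rich medium, at 30 °C and an OD600 of 0.6. All groups share 2 min of cycloheximide at 100 ug/ml, a drug that stalls elongating ribosomes. The 4 groups are monosome footprints (from mRNA carrying a single ribosome), polysome footprints (from mRNA carrying several), global footprints (from all ribosomes of the lysate) and mRNA fragments, with 2 libraries each. No strain, genotype or other treatment is given in the labels, and they do not say that the 2 libraries of a group came from separate cultures. The p-values therefore rest on the spread of library pairs that may be technical repeats.

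In yeast, eIF2 carries the initiator methionyl-tRNA to the small ribosomal subunit while it is bound to GTP, and eIF2B recharges it with GTP after each round of initiation. Gcn2 senses uncharged tRNA in starved cells and phosphorylates the alpha subunit of eIF2, which turns eIF2 into an inhibitor of eIF2B. Most translation then falls, whereas the GCN4 coding sequence, which is held down in fed cells by short upstream open reading frames in its leader, is translated and Gcn4 switches on genes of amino acid synthesis. The GCN and GCD names, which SUI2 and SUI3 do not carry, come from mutants that cannot raise Gcn4 (GCN) or that raise it without starvation (GCD).

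Libraries held 4723489 and 6443263 counts for monosomes, 8686385 and 7494965 for polysomes, 749057 and 552992 for global footprints, and 933252 and 672928 for mRNA. The 10 genes together took 0.196% to 0.253% of the counts of footprint libraries and 0.0991% and 0.110% of those of mRNA libraries. All 10 passed the low-count filter, with the lowest single count at 16, for GCN4 in global replicate 2. Levels are given as CPM, counts scaled by library size and TMM factor. Densities are CPM per kb of coding length, the scale on which genes of different length can be set side by side. Each library is scaled on its own, so a comparison of groups is of a gene's relative level within them. Such a comparison does not give how many footprints a fraction held in the cell. The deposited table gives 1 count per gene, so it does not tell footprints in the GCN4 leader from those in its coding sequence, and the annotation used for counting is not given in the sources used here.

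Among the 10 genes GCN4 ranked 1 in mRNA density, with libraries that overlapped those of GCD11, but 5 in monosomes and 9 in both polysomes and global footprints. It (YEL009C) lies on chromosome V (138918 to 139763, R64 assembly) and encodes 281 codons of a basic leucine zipper activator. Its mRNA level was 255 and 223 CPM, against 34.4 and 22.9 CPM in global footprints, 79.1 and 90.2 CPM in monosomes and 22.6 and 17.8 CPM in polysomes. The mRNA libraries were highest, the monosome libraries came next, and the global and polysome libraries were lowest and lay next to each other without overlap. The order of the group means was 239 ± 22.7 CPM (SD, n = 2) for mRNA, 84.7 ± 7.81 for monosomes, 28.7 ± 8.16 for global footprints and 20.2 ± 3.43 for polysomes.

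Each step in that order passed the test except the last. Monosome footprints of GCN4 were lower than its mRNA by 2.82-fold (-1.50 on the log2 scale, SE 0.13, edgeR adjusted p = 1.61e-18) and higher than global footprints by 2.89-fold (1.53, SE 0.20, edgeR adjusted p = 4.60e-10). Polysome against global footprints gave -0.53 (SE 0.25, edgeR adjusted p = 0.114). That value passed when libraries were scaled by their totals without TMM factors (-0.98, edgeR adjusted p = 0.00280) and without polysome replicate 1 (-0.73, edgeR adjusted p = 0.0455), and shrank to -0.16 without global replicate 1. The global libraries held 31 counts (95% exact Poisson interval 21.1 to 44.0) and 16 counts (9.15 to 26.0) of GCN4, intervals that cover counting error only.

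The ratio of monosome to polysome CPM for GCN4 was 3.50 in the replicate 1 libraries and 5.07 in the replicate 2 libraries, although the labels do not say that same-numbered libraries are paired. Of 5336 genes tested, 3.24% had a larger log2 fold change of monosomes over polysomes than GCN4, which was at 2.07 (SE 0.12, edgeR adjusted p = 1.11e-28). The ratio of global footprints to mRNA, called translational efficiency here, was 0.135 and 0.103 for GCN4 (-3.03 on the log2 scale, SE 0.21, edgeR adjusted p = 1.28e-24). Of the tested genes, 93.3% lay above it. Footprint and mRNA libraries also differ in fragment length (26 to 32 nt against 20 to 45 nt). For every gene, a difference in translation therefore cannot be told apart from a difference in library preparation. Polysome footprints lay further below the mRNA, by 11.8-fold (-3.56, SE 0.15, edgeR adjusted p = 1.28e-39).

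**Figure D1:**
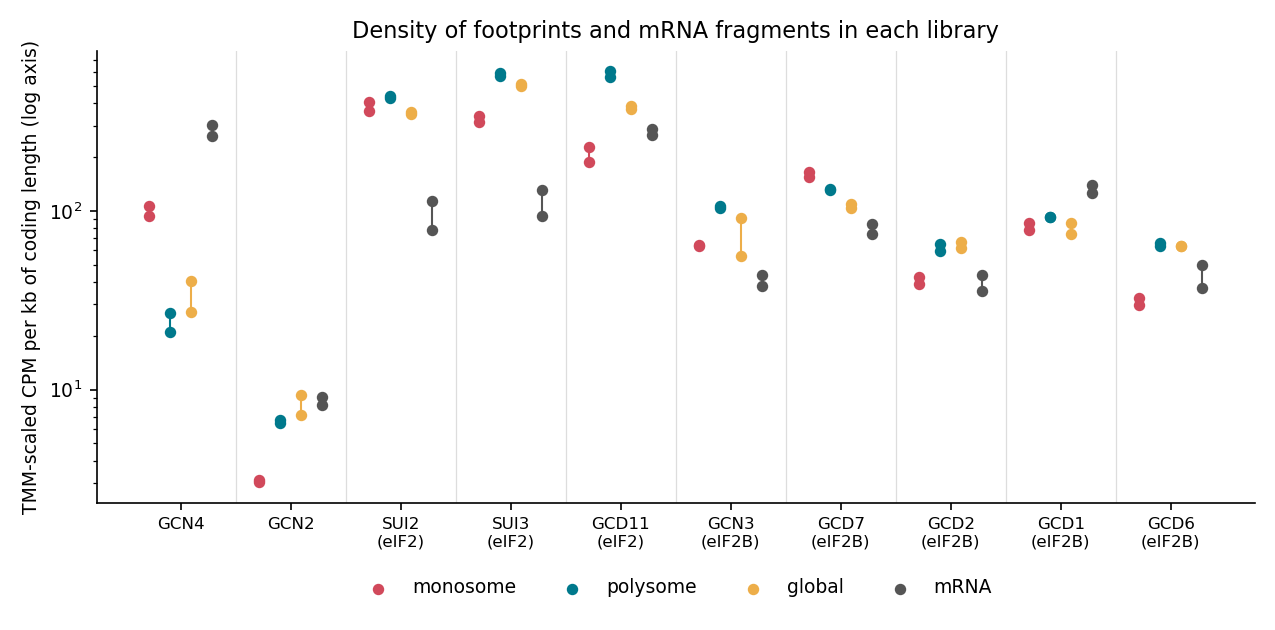
Footprint and mRNA density of each gene in each of the 8 libraries, as TMM-scaled CPM per kb of coding length on a log axis; each dot is a library and a line joins the 2 libraries of a group. GCN4 has its highest density in mRNA (301 and 263) and its lowest in polysomes (26.7 and 21.0), whereas the eIF2 genes SUI2 and SUI3 are lowest in mRNA and GCN2 lies below all others in every group.

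GCN2 encodes a kinase of 1659 codons (YDR283C, chromosome IV, 1025070 to 1030049), the longest of these proteins. Its level was 45.0 and 40.6 CPM in mRNA, 46.6 and 35.8 CPM in global footprints, 32.6 and 33.8 CPM in polysomes and 15.5 and 15.1 CPM in monosomes. Global and mRNA libraries overlapped, and the monosome libraries were lower than all others. The relative level of GCN2 in monosomes was lower than in polysomes by 2.17-fold (-1.12 on the log2 scale, SE 0.14, edgeR adjusted p = 3.00e-11), than in global footprints by 2.73-fold (-1.45, SE 0.23, edgeR adjusted p = 8.67e-08) and than in mRNA by 2.81-fold (-1.49, SE 0.26, edgeR adjusted p = 2.63e-07). Its global footprints against mRNA gave -0.04 (SE 0.28, edgeR adjusted p = 0.904), which did not pass. With library totals that value was 0.72 and passed (edgeR adjusted p = 0.0184), as totals move the median of all genes from 0.15 to 0.91. Polysomes against mRNA gave -0.38 (SE 0.23, edgeR adjusted p = 0.137), which passed with RLE size factors (-0.55, edgeR adjusted p = 0.0301) and under a filter of 50 counts on average (-0.66, edgeR adjusted p = 0.0111). Polysomes against global footprints gave -0.33 (edgeR adjusted p = 0.250), which passed with library totals (-0.78, edgeR adjusted p = 0.00394).

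GCN2 had the lowest density of the 10 genes in each of the 8 libraries. In global footprints it was at 9.37 and 7.18 CPM per kb, against 410 and 417 CPM per kb for the mean of the 3 eIF2 genes. The density of GCN2 was thus 0.0228 and 0.0172 of that of its substrate's genes in global footprints, and 0.0593 and 0.0480 of it in mRNA. These ratios within a library do not change with the scaling.

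The 3 subunits make up eIF2 in equal number. SUI2 (YJR007W, chromosome X, 451020 to 451934) encodes the alpha subunit that Gcn2 phosphorylates, SUI3 (YPL237W, chromosome XVI, 100496 to 101353) the beta subunit that eIF5 and eIF2B contact, and GCD11 (YER025W, chromosome V, 205251 to 206834) the gamma subunit that binds GTP and the initiator tRNA. SUI2 stood at 71.4 and 105 CPM in mRNA, 328 and 320 in global footprints, 401 and 390 in polysomes and 371 and 332 in monosomes. The mRNA libraries were far below the 6 footprint libraries, which lay close together.

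SUI3 stood at 80.7 and 112 CPM in mRNA, 430 and 439 in global footprints, 505 and 486 in polysomes and 271 and 291 in monosomes. It too had mRNA libraries below all footprint libraries, with monosomes lowest among the footprints. GCD11 stood at 452 and 420 CPM in mRNA, 590 and 614 in global footprints, 956 and 890 in polysomes and 358 and 296 in monosomes. Here the polysome libraries were highest and the monosome libraries lowest, below those of mRNA.

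Global footprints of the 3 eIF2 genes were higher than their mRNA on the TMM scale, by unlike factors. Global footprints exceeded mRNA 3.75-fold for SUI2 (1.91 on the log2 scale, SE 0.18, edgeR adjusted p = 2.15e-17), 4.57-fold for SUI3 (2.19, SE 0.17, edgeR adjusted p = 5.75e-22) and 1.38-fold for GCD11 (0.46, SE 0.13, edgeR adjusted p = 0.00177). The value of GCD11 no longer passed under a stricter filter of 50 counts on average (0.25, edgeR adjusted p = 0.0727), and the difference between genes was not tested. In mRNA density GCD11 was highest, at 285 and 265 CPM per kb, and SUI2 lowest, at 78.1 and 114, a span of 3.65-fold and 2.32-fold between the highest and lowest gene. In global footprint density the same genes spanned 1.40-fold and 1.46-fold, with SUI3 at 501 and 512, GCD11 at 372 and 387 and SUI2 at 358 and 350 CPM per kb. The mRNA libraries held 46 and 54 counts of SUI2 (95% exact Poisson intervals 33.7 to 61.4 and 40.6 to 70.5) and 52 and 58 of SUI3.

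The eIF2 genes also split between monosomes and polysomes. GCD11 was 2.83-fold lower in monosomes than in polysomes (-1.50 on the log2 scale, SE 0.11, edgeR adjusted p = 3.83e-22), and 98.8% of the tested genes had a higher value. SUI3 was 1.76-fold lower (-0.82, SE 0.10, edgeR adjusted p = 1.78e-11). SUI2 gave -0.17 (SE 0.10, edgeR adjusted p = 0.121), with ratios of 0.923 and 0.851. With library totals SUI2 turned to 0.28 and passed (edgeR adjusted p = 0.00713). The order of the 3 densities therefore differed between fractions: SUI2, SUI3 and GCD11 from high to low in monosomes, and GCD11 with SUI3, then SUI2, in polysomes, where GCD11 (603 and 562 CPM per kb) and SUI3 (588 and 567) overlapped.

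**Figure D2:**
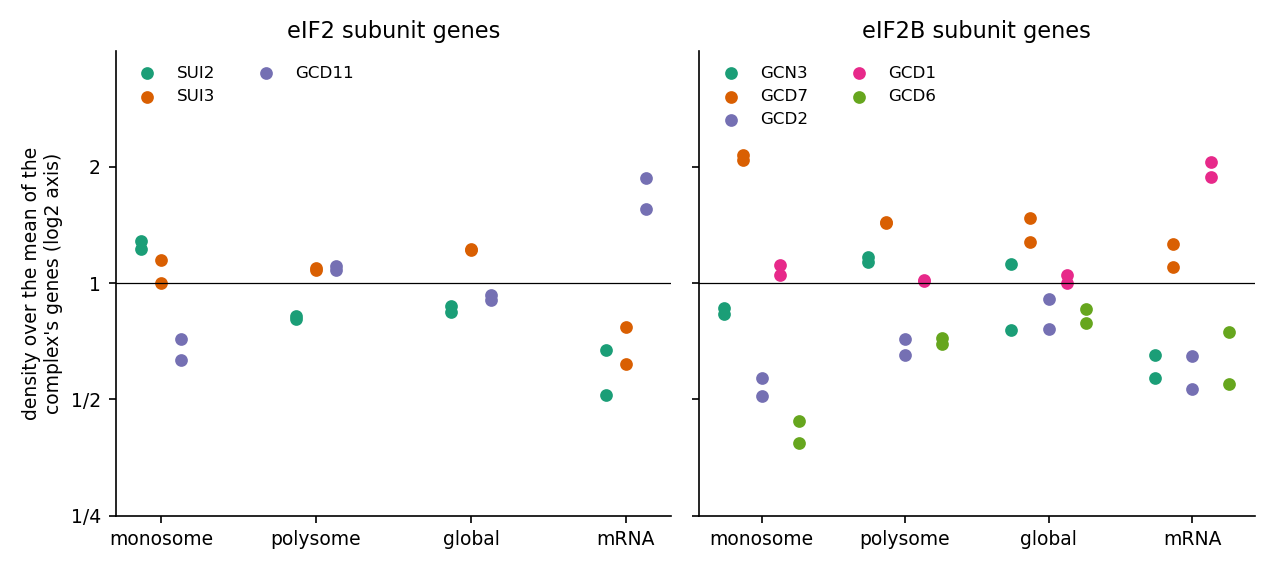
Density of each subunit gene divided by the mean density of its complex in the same library, on a log2 axis; each dot is a library, the horizontal line at 1 is the mean of the complex, and the groups are along the horizontal axis. The eIF2 genes span at most 1.46-fold in global footprints and at least 2.32-fold in mRNA, and GCD7 is the highest eIF2B gene in each footprint library while GCD1 is the highest in both mRNA libraries.

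eIF2B has a regulatory part, made of GCN3 (alpha), GCD7 (beta) and GCD2 (delta), which senses phosphorylated eIF2, and a catalytic part, made of GCD1 (gamma) and GCD6 (epsilon), which carries out the exchange of GDP for GTP. GCN3 (YKR026C, chromosome XI, 488738 to 489655) is the only one of the 5 that is dispensable for growth. Its level was 40.4 and 34.8 CPM in mRNA, 83.3 and 51.5 in global footprints, 98.3 and 95.0 in polysomes and 58.9 and 58.6 in monosomes. Its global libraries lay far apart and overlapped with those of monosomes.

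GCD7 (YLR291C, chromosome XII, 718317 to 719462) was at 85.4 and 96.8 CPM in mRNA, 119 and 124 in global footprints, 151 and 149 in polysomes and 177 and 189 in monosomes. Unlike the other subunit genes of both complexes, it had its highest libraries in monosomes. GCD2 (YGR083C, chromosome VII, 644860 to 646815) was at 85.4 and 69.7 CPM in mRNA, 121 and 132 in global footprints, 116 and 128 in polysomes and 83.0 and 76.7 in monosomes. Its global and polysome libraries overlapped, as did its monosome and mRNA libraries.

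Of the catalytic pair, GCD1 (YOR260W, chromosome XV, 813984 to 815720) was at 242 and 219 CPM in mRNA, 148 and 129 in global footprints, 161 and 161 in polysomes and 135 and 149 in monosomes. It shared with GCN4 alone the pattern of mRNA libraries above all footprint libraries. GCD6 (YDR211W, chromosome IV, 884727 to 886865), the subunit with the exchange activity, was at 79.2 and 106 CPM in mRNA, 137 and 136 in global footprints, 141 and 135 in polysomes and 69.9 and 63.4 in monosomes. Its polysome and global libraries overlapped, and its monosome libraries were lowest.

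Between monosomes and polysomes the eIF2B genes covered a wide range. GCD6 was 2.08-fold lower in monosomes (-1.06 on the log2 scale, SE 0.10, edgeR adjusted p = 5.30e-17), GCN3 1.65-fold lower (-0.72, SE 0.10, edgeR adjusted p = 1.60e-09) and GCD2 1.53-fold lower (-0.62, SE 0.10, edgeR adjusted p = 2.36e-08). GCD1 gave -0.18 (SE 0.10, edgeR adjusted p = 0.0867) and GCD7 was 1.22-fold higher in monosomes (0.29, SE 0.09, edgeR adjusted p = 0.00493). GCD7 lost its call without polysome replicate 2 (0.28, edgeR adjusted p = 0.0517). With library totals GCD2 lost its call (-0.16, edgeR adjusted p = 0.143), and GCD1 turned to 0.27 and passed (edgeR adjusted p = 0.00874), as it did without a low-count filter but in the other direction (-0.22, edgeR adjusted p = 0.0413).

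In translational efficiency GCD1 was the only eIF2B gene below its mRNA. Its global footprints were 1.66-fold lower (log2 fold change -0.73, SE 0.15, edgeR adjusted p = 2.07e-05), a call that was lost with library totals, where it was 0.03 (edgeR adjusted p = 0.869). GCN3 was higher by 1.82-fold (0.87, SE 0.26, edgeR adjusted p = 0.00246), GCD2 by 1.61-fold (0.68, SE 0.19, edgeR adjusted p = 0.00127), GCD6 by 1.49-fold (0.57, SE 0.18, edgeR adjusted p = 0.00465) and GCD7 by 1.34-fold (0.42, SE 0.19, edgeR adjusted p = 0.0433). The calls of GCN3, GCD6 and GCD7 rested on single libraries: GCN3 was at 0.48 without global replicate 1 (edgeR adjusted p = 0.221), GCD6 at 0.42 without mRNA replicate 1 (edgeR adjusted p = 0.119), and GCD7 was at 0.39 without mRNA replicate 1 (edgeR adjusted p = 0.177), 0.49 without global replicate 1 (0.0622) and 0.44 without global replicate 2 (0.0835). GCD6 also lost its call with DESeq2 (0.42, adjusted p = 0.0659) and under the stricter filter (0.36, edgeR adjusted p = 0.0699). GCD7 lost it with DESeq2 (0.27, adjusted p = 0.243), with RLE size factors (0.27, edgeR adjusted p = 0.214), under the stricter filter (0.21, edgeR adjusted p = 0.310) and in a fit of these groups alone (0.32, edgeR adjusted p = 0.121).

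The densities of the 5 eIF2B genes, which like those of eIF2 enter their complex in equal number, lay closest together in global footprints. The span from highest to lowest was 1.68-fold and 1.94-fold there, 2.22-fold and 2.06-fold in polysomes, 3.77-fold and 3.53-fold in mRNA and 4.73-fold and 5.57-fold in monosomes. In global footprints GCD7 was highest at 104 and 109 CPM per kb, followed without overlap by GCD1 (85.0 and 74.1). GCN3 (90.7 and 56.1) overlapped with GCD1 and with GCD2 (61.9 and 67.3), and GCD2 with GCD6 (63.9 and 63.5). In monosomes GCD7 (155 and 165), GCD1 (78.0 and 85.6), GCN3 (64.2 and 63.8), GCD2 (42.4 and 39.2) and GCD6 (32.7 and 29.6) followed each other with no overlap. The mean density of the eIF2 genes was 5.06 and 5.63 times that of the eIF2B genes in global footprints, 5.94 and 5.69 times in polysomes, 4.24 and 3.86 times in monosomes, and 2.25 and 2.55 times in mRNA.

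**Figure D3:**
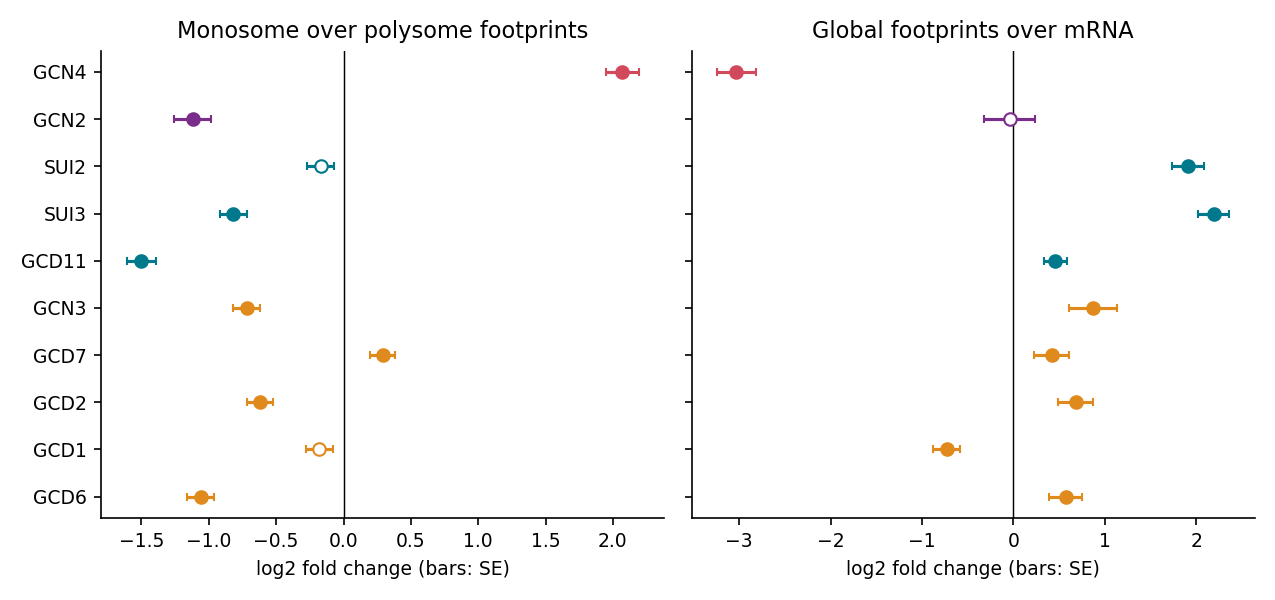
Log2 fold changes of the 10 genes for monosome over polysome footprints (left) and global footprints over mRNA (right); dots are edgeR estimates from 2 libraries a group, bars are SE, and open dots did not pass an adjusted p of 0.05. GCN4 is the highest on the left (2.07) and the lowest on the right (-3.03), and GCD11 is the lowest on the left (-1.50).

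Counted over the 10 genes, monosomes against polysomes gave 2 higher (GCN4 and GCD7), 6 lower and 2 that did not pass, so 8 were called, where the same test called 70.2% of all 5336 genes (36.6% higher, 33.5% lower). The median log2 fold change was -0.67 over the 10 genes and 0.05 over all genes. With library totals 4 were higher and 5 lower, where 3030 of all 5336 genes were higher and 867 lower. The median of all genes moved to 0.50 there. The libraries of monosomes and polysomes overlapped for 0 of the 10 genes, and did not overlap for 84.4% of all genes. Global footprints against mRNA gave 7 higher, 2 lower (GCN4 and GCD1) and GCN2 not passed, against 65.7% of all genes called (34.8% higher, 31% lower). Its median was 0.52 over the 10 genes and 0.15 over all genes. With library totals 8 of the 10 were higher and 1 lower, where 2906 of all genes were higher and 1028 lower.

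Against global footprints, monosomes were higher for GCN4 and for GCD7 (1.51-fold, 0.59 on the log2 scale, SE 0.13, edgeR adjusted p = 9.14e-05), and lower for 5 genes, where 46.5% of all genes were called (22.2% higher, 24.3% lower). The 5 were GCN2, GCD6 (-1.04), GCD11 (-0.88), GCD2 (-0.66) and SUI3 (-0.63). SUI2 (0.11, edgeR adjusted p = 0.454), GCN3 (-0.23, edgeR adjusted p = 0.258) and GCD1 (0.03, edgeR adjusted p = 0.861) did not pass. The value of GCN3 depended on the shallow global libraries, at 0.18 without global replicate 1 and -0.52 without global replicate 2, where it passed (edgeR adjusted p = 0.0378).

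Polysomes lay nearer to global footprints, with 2 of the 10 genes higher and 0 lower by edgeR (1 lower, GCN4, at an unadjusted p under 0.05, and 0 lower with DESeq2), where 23.5% of all genes were called (13.5% higher, 10% lower). The 2 were GCD11 (1.54-fold, 0.62 on the log2 scale, SE 0.12, edgeR adjusted p = 1.93e-05) and GCN3 (1.40-fold, 0.48, SE 0.16, edgeR adjusted p = 0.0172). SUI2 (0.29, edgeR adjusted p = 0.0655) and GCD7 (0.31, edgeR adjusted p = 0.0843) did not pass. Nor did GCD1 (0.21), SUI3 (0.19), GCD6 (0.02), GCD2 (-0.04), GCN2 or GCN4. GCN3 lost its call without global replicate 2 (0.22, edgeR adjusted p = 0.511), without polysome replicate 1 (0.45, edgeR adjusted p = 0.0693) and with DESeq2 (adjusted p = 0.0772). SUI2 passed with the 6 footprint libraries (0.35, edgeR adjusted p = 0.0125) and in a fit of these groups alone (0.27, edgeR adjusted p = 0.0311). It also passed without a low-count filter (0.31, edgeR adjusted p = 0.0494) and with a replicate block (0.29, edgeR adjusted p = 0.0311). GCD7 passed with the 6 footprint libraries (0.37, edgeR adjusted p = 0.0264). With library totals 0 were higher and 5 lower, where 181 of all genes were higher and 2002 lower. The median of all genes moved from -0.02 to -0.46. These comparisons share the global libraries, and each shares libraries with monosomes against polysomes.

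Set against mRNA, monosomes were higher for 4 genes and lower for 5, where 72.7% of all genes were called (37.9% higher, 34.8% lower). With library totals 6 were higher and 2 lower in monosomes, where 3045 of all genes were higher and 1214 lower. GCD2 gained a call there (0.80, edgeR adjusted p = 4.37e-05), and GCD1 (0.07) and GCD6 (0.30) lost theirs. Polysomes were higher for 7 and lower for 2, where 72.9% were called (38.3% higher, 34.6% lower). SUI2 (log2 fold change 2.02, SE 0.16) and SUI3 (1.56, SE 0.16) led in monosomes over mRNA, followed by GCD7 (1.02, SE 0.16) and GCN3 (0.63, SE 0.23). GCD11 (-0.42, SE 0.13), GCD6 (-0.46, SE 0.17) and GCD1 (-0.70, SE 0.13) were lower in monosomes with GCN4 and GCN2, and the first of them turned to 0.35 and passed with library totals (edgeR adjusted p = 0.00335). GCD11 lost its call without mRNA replicate 1 (-0.25, edgeR adjusted p = 0.172) and GCD6 without mRNA replicate 2 (-0.15, edgeR adjusted p = 0.588), as well as in a fit of these groups alone (-0.36, edgeR adjusted p = 0.0576). GCN3 lost it with DESeq2 (0.49, adjusted p = 0.0870) and under the filter of 50 counts (0.48, edgeR adjusted p = 0.0517). In polysomes over mRNA, SUI3 (2.38, SE 0.16), SUI2 (2.19, SE 0.16), GCN3 (1.35, SE 0.21) and GCD11 (1.08, SE 0.13) led. GCD7 (0.73, SE 0.16) and GCD2 (0.64, SE 0.17) were higher there too. GCD1 was lower there (-0.52, SE 0.13) but not without mRNA replicate 1 (-0.30, edgeR adjusted p = 0.129) or with library totals (-0.21, edgeR adjusted p = 0.125). With library totals 7 were higher and 1 lower in polysomes, where 2445 of all genes were higher and 1543 lower. GCD6 (0.60, SE 0.16) lost its call under the filter of 50 counts (0.31, edgeR adjusted p = 0.0703).

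The authors' deposited table also gives DESeq2 results, in which the sign follows monosomes over polysomes. In the authors' deposited table GCN4 is at 1.95 (adjusted p = 5.23e-28), GCD11 at -1.55 (adjusted p = 1.61e-45) and GCN2 at -1.14 (adjusted p = 1.85e-07). Calls at 0.05 differ for a pair of genes: in the authors' deposited table SUI2 passes as lower (-0.24, adjusted p = 0.0326) and GCD7 does not pass (0.22, adjusted p = 0.0718). The authors' deposited table has 57.1% of its 5494 genes with an adjusted p under that threshold.

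**Figure D4:**
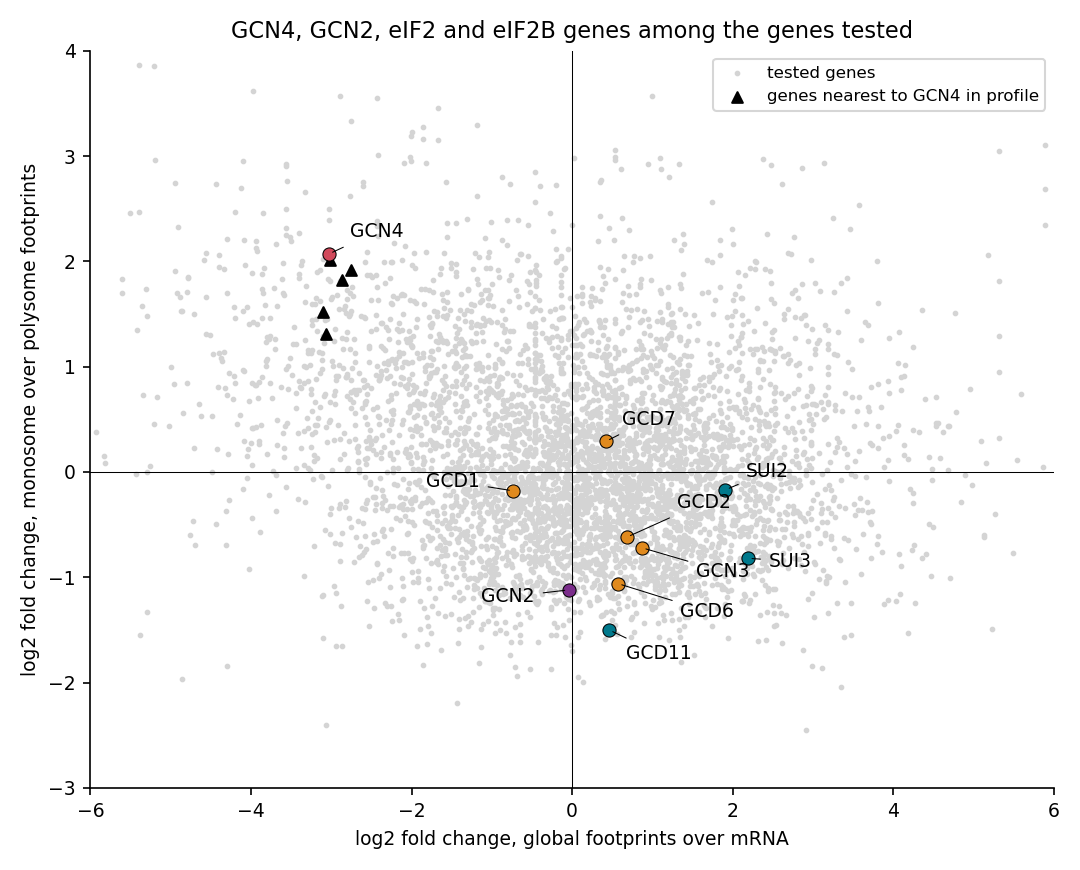
Log2 fold change of global footprints over mRNA (horizontal axis) and of monosome over polysome footprints (vertical axis); grey dots are 5200 tested genes (136 lie outside the axes), coloured dots the 10 genes (red GCN4, purple GCN2, teal eIF2, orange eIF2B) and triangles the 5 genes with the profile nearest to that of GCN4. GCN4 lies at -3.03 and 2.07, apart from the other 9 genes, of which GCD7 alone lies above 0 on the vertical axis.

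The genes most like GCN4 were sought over the 8 libraries among 4161 genes with 50 or more counts on average, by the Euclidean distance of log2 CPM centred per gene. The 5 nearest were ERG2, a sterol isomerase gene (distance 0.50), ARO9, an aromatic aminotransferase gene (0.58), INA1 (0.63), ICE2, an endoplasmic reticulum protein gene (0.88), and EMC1, a subunit gene of the endoplasmic reticulum membrane complex (0.92), against a median distance of 4.58 over these genes. ERG2 stood at 682 and 598 CPM in mRNA, 272 and 274 in monosomes, 107 and 81.6 in global footprints and 73.2 and 70.7 in polysomes. It had the same order of groups as GCN4, a likeness that follows from how it was chosen. Among the 10 genes, the nearest to GCN4 was GCD1, at a distance of 3.41. SUI2 and SUI3 were nearest to each other (0.83), and GCD11 and GCD6 likewise (0.76).

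Genes that act on this pathway were described from 4 lists. Gcn1 and Gcn20 are needed to activate Gcn2 on the ribosome, and Yih1 and Gir2 bind Gcn1. In monosomes against polysomes 3 of these 4 genes were lower and 0 higher with edgeR (0 with DESeq2, and 0 at an unadjusted p under 0.05; YIH1 gave -0.10, edgeR adjusted p = 0.400), where 33.5% of all genes were lower and 36.6% higher, with a median of -0.48 beside 0.05 over all genes. GIR2 was at -1.14 (SE 0.10), GCN20 at -0.64 (SE 0.10) and GCN1 at -0.32 (SE 0.11), and GIR2 alone remained lower with library totals. There 1 was lower and 1 higher, where 867 of all genes were lower and 3030 higher. YIH1 turned to 0.35 and passed (edgeR adjusted p = 0.00623), GCN1 turned to 0.13 (edgeR adjusted p = 0.168) and GCN20 was at -0.19 (edgeR adjusted p = 0.0743). In translational efficiency 1 was higher and 2 lower, where 34.8% of all genes were higher and 31% lower. GIR2 was higher (2.99, SE 0.32, with 7.76 and 17.4 CPM in mRNA and 94.4 and 98.7 in global footprints), whereas GCN1 (-2.26, SE 0.13) and YIH1 (-1.44, SE 0.21) were lower. GCN20 turned to 0.67 and passed there with library totals (edgeR adjusted p = 0.000138). GCN1 had 2610 and 2520 CPM in mRNA and 536 and 532 in global footprints.

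Of 9 partners of eIF2 and of the ternary complex, 7 were lower and 1 higher in monosomes against polysomes, where 33.5% of all genes were lower and 36.6% higher (median -0.72 beside 0.05 over all genes). FUN12, the GTPase that joins the ribosomal subunits (-1.60, SE 0.11), GCD14, a subunit of the methyltransferase of the initiator tRNA (-1.24, SE 0.12), and TIF5, the activator of GTP hydrolysis on eIF2 (-1.09, SE 0.11), were lowest, and SUI1, the start codon factor eIF1, was higher (0.51, SE 0.10). With library totals 4 were lower and 2 higher, where 867 of all genes were lower and 3030 higher. In translational efficiency 7 of the 9 were higher and 1 lower, where 34.8% of all genes were higher and 31% lower (median 1.54 beside 0.15 over all genes). The highest were TIF11, the gene of eIF1A (3.72, SE 0.21, 37.3 and 31.0 CPM in mRNA and 449 and 461 in global footprints), and SUI1 (2.28, SE 0.17). TIF5 was the one lower (-0.50, SE 0.13), and turned to 0.26 with library totals (edgeR adjusted p = 0.0397).

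Of 11 genes for coactivators and turnover of Gcn4, 8 were lower and 2 higher in monosomes against polysomes, where 33.5% of all genes were lower and 36.6% higher (median -0.46 beside 0.05 over all genes). The ubiquitin ligase subunit gene SKP1 (-1.57, SE 0.10), the bridging factor gene MBF1 (-1.05, SE 0.11) and the kinase gene PHO85 (-0.57, SE 0.10) were lowest. PCL5, the Pho85 cyclin that marks Gcn4 for degradation, was higher (1.60, SE 0.16), at 31.4 and 39.9 CPM in monosomes and 10.9 and 13.0 in polysomes, as was SSN3, the Mediator kinase gene (0.56, SE 0.15). With library totals 2 were lower and 3 higher, where 867 of all genes were lower and 3030 higher. In translational efficiency 6 were higher and 2 lower, where 34.8% of all genes were higher and 31% lower (median 0.84 beside 0.15 over all genes). The acetyltransferase gene GCN5 (2.05, SE 0.45) and CDC34 (1.42, SE 0.24) were highest. The value of GCN5 rested on few mRNA counts, at 4.66 and 13.5 CPM. PHO85 (-0.65, SE 0.23) and CDC4 (-0.60, SE 0.23) were lower, and turned to 0.12 and 0.16 with library totals, where neither passed (edgeR adjusted p = 0.656 and 0.543).

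Of 32 amino acid synthesis enzymes under Gcn4, 24 were lower and 1 higher in translational efficiency, where 31% of all genes were lower and 34.8% higher (median -1.17 beside 0.15 over all genes). ILV3, an enzyme gene of branched-chain amino acid synthesis, had 4110 and 3620 CPM in mRNA and 598 and 578 in global footprints (-2.72, SE 0.13). ARG8, of arginine synthesis, was at -2.53 (SE 0.51), which rested on few counts, at 4.44 and 7.15 CPM in global footprints. ARO3, of the entry step to aromatic amino acids, was the one higher (0.40, SE 0.17), but did not pass with RLE size factors (0.25, edgeR adjusted p = 0.189). With library totals 18 were lower and 8 higher, where 1028 of all genes were lower and 2906 higher. The median was -0.41 there, beside 0.91 over all genes. In monosomes against polysomes 26 were lower and 4 higher, where 33.5% of all genes were lower and 36.6% higher. With library totals 15 were lower and 7 higher there, where 867 of all genes were lower and 3030 higher. Within the list ARG1 (-1.49, SE 0.14), HIS4 (-1.27, SE 0.11) and TRP5 (-1.23, SE 0.12) were lowest, and 3 arginine genes, ARG8 (1.19, SE 0.28), ARG5,6 (0.83, SE 0.17) and ARG3 (0.82, SE 0.23), were highest. The lists are described by these counts alone, and none was tested as a set.

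**Figure D5:**
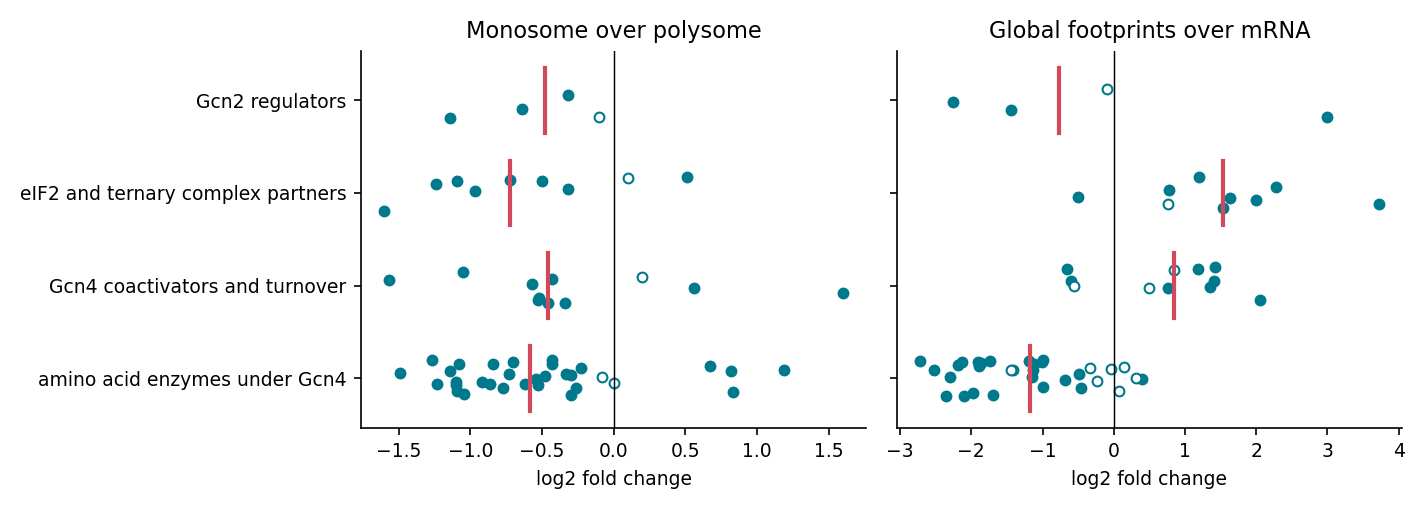
Log2 fold changes of the genes of 4 pathway lists for monosome over polysome footprints (left) and global footprints over mRNA (right), on the TMM scale; each dot is a gene, open dots did not pass an adjusted p of 0.05, red bars are medians and the vertical spread within a list carries no value. List medians on the left lie between -0.72 and -0.46, and on the right between -1.17 for the amino acid enzymes and 1.54 for the eIF2 partners; with library totals the medians of the coactivators on the left and of the Gcn2 regulators on the right were 0.00.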

How the data were processed

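Raw counts per gene were deposited for 8 libraries. Per the labels, footprints were 26 to 32 nt long, and mRNA fragments, from RNA freed of rRNA, 20 to 45 nt. TopHat, Bowtie, HTSeq and DESeq2 and the sacCer3 build are named in the submitters' processing notes, without versions; the annotation, the strand setting and the treatment of multiply mapped reads are not given in the sources used here. The authors' deposited log2 fold change and adjusted p-value come from DESeq2, per the file headers, which do not name the comparison. They are quoted beside the results only.

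Columns were assigned to the 4 groups by their titles. Counts were fitted with edgeR 4.0.16 (R 4.3.3), with TMM factors, filterByExpr (minimum count 10, minimum total 15; 5336 of 6692 genes kept), 1 model of all 8 libraries, the quasi-likelihood F test and Benjamini-Hochberg adjustment over all tested genes, at a threshold of 0.05. The SE is the log2 fold change over the square root of F. TMM factors were 1.22 and 1.25 for monosomes, 0.880 and 0.923 for polysomes, 1.20 and 1.26 for global footprints, and 0.691 and 0.769 for mRNA. Lengths and positions are from RefSeq (R64); all 10 lengths are multiples of 3, taken as coding length, and 0 of the 10 genes overlap another gene of that table. No replicate pair was a copy: their counts differed with a chi-square of 1.54 to 5.63 per degree of freedom. Alternatives were DESeq2 1.42.0, RLE factors, library totals, other filters, fewer libraries in the fit, a replicate block and leaving out each library. On simulated counts of 5341 genes for monosomes against polysomes, edgeR called 66.7% of genes changed by 0.5 on the log2 scale and 100% of those changed by 1. The changed genes had 50 or more counts on average, and all others were set equal in these groups. The comparisons with the shallower global and mRNA libraries were not simulated, so these rates do not apply to them.

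All 10 members are named in every comparison. From each list, up to 3 genes each way are named for monosomes against polysomes and up to 2 for global footprints against mRNA, taken by size among those that passed, and a few more to explain a count. The members and lists were chosen with earlier results of these data known.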

Additional observations from a re-analysis of the deposited data

How the results depend on the processing

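Over 12 alternatives in the footprint comparisons and 11 in those with mRNA, GCN4 kept its call and direction in 5 of the 6 comparisons. Its log2 fold change was 1.91 to 2.52 for monosomes over polysomes and 1.29 to 1.88 for monosomes over global footprints. Against mRNA it was -1.65 to -0.73 for monosomes, -3.85 to -3.25 for polysomes and -3.35 to -2.27 for global footprints. Polysomes against global footprints of GCN4 passed with library totals (-0.98) and ranged from -0.75 to -0.16 when 1 library was left out. In that comparison 2 members were called, against 5 with library totals, 1 with DESeq2 and 4 in a fit of the 6 footprint libraries, and 1 to 2 when a library was left out. Over all genes it had 1254 calls, 2183 with library totals and 755 to 1045 without a library.

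Directions turned 29 times over the 10 genes and 6 comparisons, 12 of them with library totals. There SUI2 (0.28) and GCD1 (0.27) turned in monosomes against polysomes, GCD1 (0.03) and GCN2 (0.72) in global footprints against mRNA, and GCD11 (0.35), GCD6 (0.30) and GCD1 (0.07) in monosomes against mRNA. In polysomes against global footprints, GCD6 (-0.43), SUI3 (-0.26), GCD1 (-0.23), SUI2 (-0.16) and GCD7 (-0.14) turned. By construction, changing the scaling shifts all genes of a comparison by about the same amount.

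The other turns were of values near 0 that passed in neither setting; for each, the range over the fits that left out 1 library is given. GCD2 in monosomes against mRNA (0.02) was -0.12 with RLE factors and with DESeq2, -0.13 with a mean of at least 50 counts and from -0.07 to 0.30 without a library. GCD2 in polysomes against global footprints (-0.04) was 0.02 with the 6 footprint libraries and from -0.10 to 0.02 without a library. GCD6 there (0.02) was 0 with RLE factors and with DESeq2, -0.05 with a mean of at least 50 counts and from -0.02 to 0.10 without a library. GCN2 in global footprints against mRNA (-0.04) was 0.04 without a low-count filter and from -0.23 to 0.16 without a library. Without a library, monosomes against global footprints ranged from -0.07 to 0.14 for GCD1 and from -0.52, where it passed, to 0.18 for GCN3. The cause was not tested.

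The deviations of same-numbered libraries from their group means correlated by -0.00844 to 0.0581 over the tested genes. Counting noise enters these values, so they cannot tell whether same-numbered libraries came from the same culture. The labels do not say either. With the replicate block 59 of 60 member results kept their call and direction. SUI2 in polysomes against global footprints passed (0.29), which made 3 members called there. Other settings also gave SUI2 a call there, such as the 6 footprint libraries (0.35). Depth limits the global and mRNA libraries, where GCN4 had 16 counts and GCN3 18 at the lowest.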
